A study of Mus musculus with 6 samples.

Results

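Amino acid transporter genes were compared between 2 mouse mammary tumour cell lines, J110 and SSM3. The genes were chosen by symbol, with earlier results of these data known. They are the protein-coding members of the Slc1a, Slc3a, Slc7a, Slc36a, Slc38a and Slc43a families, with the amino acid, taurine and creatine carriers Slc6a6, Slc6a8, Slc6a9, Slc6a14, Slc6a15, Slc6a17 and Slc6a19. This gave 49 of the 52636 genes in the count table. Slc6a20 was sought too, but no gene of that exact symbol is in the table, and its mouse copies Slc6a20a and Slc6a20b are given with the other carriers.

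RNA from 3 biological replicates of each line was sequenced from the 3′ ends of polyadenylated transcripts. J110 cells come from a mammary tumour of mice that carry an AIB1 cDNA driven by the MMTV LTR, a promoter active in mammary epithelium, and SSM3 cells come from a mammary tumour of 129SvEv mice. Each line stands for 1 tumour, and the age of the mice is not given in the sources used here. Both lines were grown in DMEM/F12 with insulin and hydrocortisone. SSM3 cells had more serum and carbon dioxide, and added L-glutamine, β-mercaptoethanol and holo-transferrin, so the cell line and its medium cannot be told apart.

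Total counts ranged from 4200785 to 5416305 per library. A ribosomal RNA locus took from 15.1% to 17.2% of the counts in J110 libraries and from 0.779% to 1.27% in SSM3 libraries, and without it 21 transporters were called, 11 higher and 10 lower in SSM3, as many as with it. In that fit 9541 of all 12233 genes tested were called. CPM is a gene's count relative to its library's total, scaled with TMM. The floor of a line was set at 3 counts in each of its libraries (0.578 to 0.668 CPM, counting error only), and a gene no higher than this in all 3 was called at the floor. Ncoa3, the gene of AIB1, had 110, 106 and 102 counts in J110 and 181, 199 and 186 in SSM3. Whether its 3′ tags lie in the transgene is not given, so it does not check the labels. Of 6 epithelial markers, the summed level was from 2683 to 2769 CPM in J110 and from 11916 to 13112 CPM in SSM3, but its members differed. Epcam had 2, 1 and 7 counts in J110 against 2376, 2404 and 2412 in SSM3, Cdh1 had 21, 11 and 28 against 6019, 6369 and 7179, and Krt19 made up most of the SSM3 sum at 7412 CPM. Krt8 was abundant in both lines, with a mean of 1275 CPM in J110 and 2269.7 in SSM3, and Krt18 was lower in SSM3, with 970.0 CPM against 1430.3 in J110. The 5 leukocyte markers summed to at most 0.425 CPM in any library and both adipocyte markers were at 0. The 5 fibroblast markers summed to at most 1.98 CPM and the 2 erythroid markers to at most 1.34 CPM. The 4 endothelial markers summed to between 158 and 181 CPM in J110, nearly all of it Cdh5, and to at most 0.425 CPM in SSM3. The mesenchymal markers Vim, Zeb1 and Zeb2 summed to at least 4982 CPM in J110 and at most 18.7 CPM in SSM3. In cultures sequenced whole, fewer cells with a transcript and less of it per cell cannot be told apart.

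Amino acids cross membranes through carriers of the solute carrier (Slc) families, each of which takes a group of substrates that resemble one another in charge and size. Some bring amino acids in with sodium or protons, some exchange one amino acid for another, and the light chains of the Slc7 family reach the surface only with a heavy chain of the Slc3 family. In the mammary gland these carriers feed milk protein synthesis. In tumours they supply nitrogen, glutathione precursors and the leucine, arginine and glutamine that the kinase mTORC1 senses.

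Of the 49 genes, 23 passed the filter on low counts and were tested with edgeR. Of these, 21 had an adjusted p below 0.05, where 77.9% of all 12284 genes tested did. The 11 higher in SSM3 stood beside 38.6% of all genes tested, and the 10 lower beside 39.2%. In 19 of the 23 the libraries of the lines did not overlap, beside 79.6% of all genes tested. The median log2 fold change, SSM3 against J110, was 0.26 over the 23 genes and -0.014 over all genes tested. A called difference was thus common throughout the transcriptome, and these shares set nothing apart about the transporters. Beyond 4-fold, 7 of the 23 were called (30.4%), where 21.7% of all genes tested were. These were Slc7a2, Slc38a1, Slc7a4 and Slc7a7, higher in SSM3, and Slc7a11, Slc43a3 and Slc43a2, which were at the floor there. Among the tested transporters 3 were at the floor in SSM3 only and 1 in J110 only, beside 5.27% and 4.04% of all genes tested.

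The summed level of the 49 genes differed little between the lines. It was 1214, 1229 and 1153 CPM in the J110 libraries and 1201, 1187 and 1214 CPM in the SSM3 libraries, so the ranges overlapped. The genes that made up this sum were not the same. In J110 the order by mean level in CPM was Slc38a2 at 304, Slc6a6 at 279, Slc38a10 at 118 and Slc3a2 at 111. The first pair overlapped between replicates, and so did the second. In SSM3 it was Slc7a2 at 328, Slc38a10 at 201, Slc3a2 at 139 and Slc38a2 at 109, with no overlap between neighbours. Next came Slc6a6 at 98.6 CPM, which overlapped Slc38a2. The 4 most abundant genes of each library held 67.7% ± 0.588 of the summed level in J110 and 65.2% ± 1.54 in SSM3 (SD, n = 3 each). Because the libraries sample 3′ ends, a transcript gives about as many reads whatever its length, and levels of different genes are set side by side in CPM without dividing by length.

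**Figure D1:**
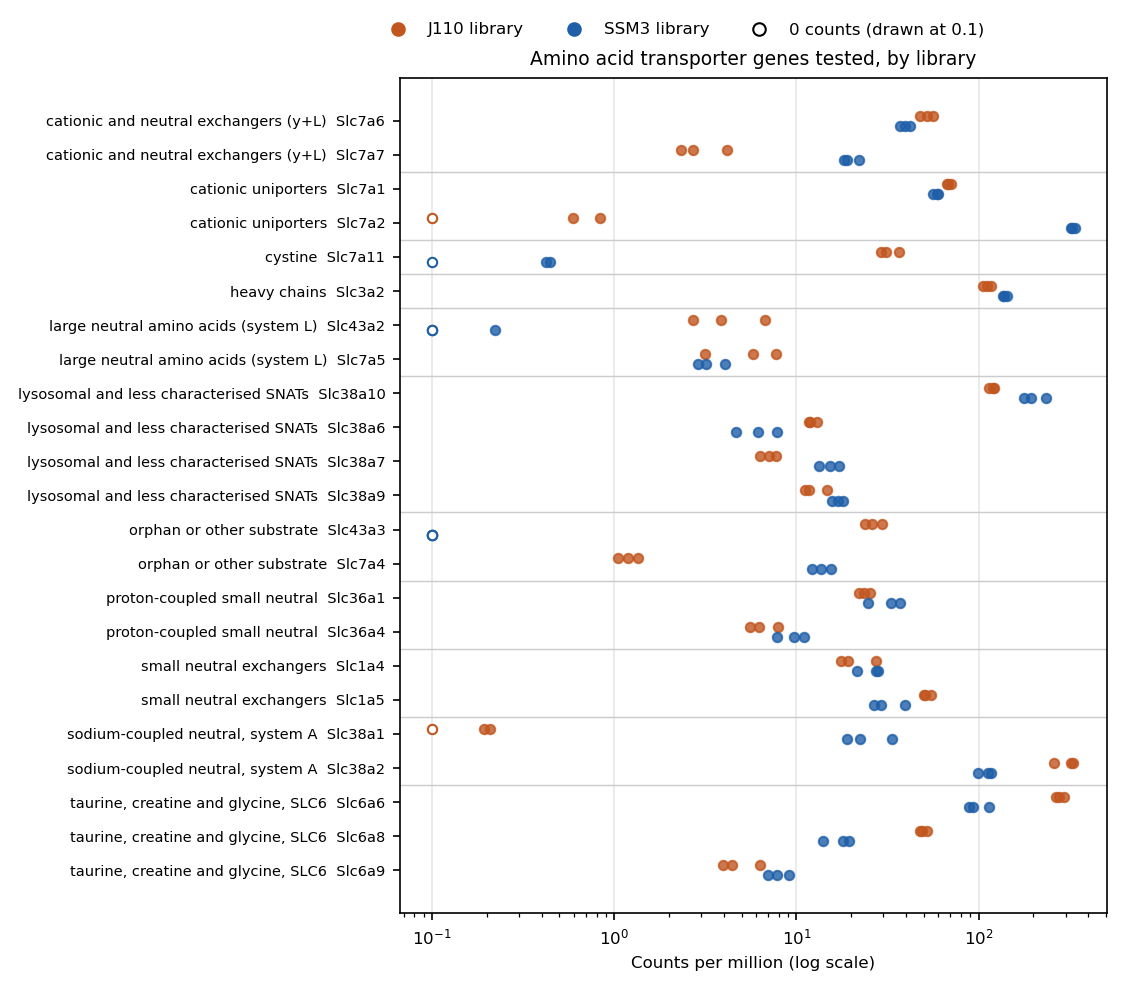
Level of each of the 23 tested amino acid transporter genes in CPM (log scale) in the 3 J110 and 3 SSM3 libraries, grouped by substrate class, 1 point per library, with open circles for libraries with 0 counts. Slc7a2 and Slc38a1 were near 0 in J110, Slc7a11, Slc43a2 and Slc43a3 were near 0 in SSM3, and most other genes lay within a few fold of each other.

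For the cationic amino acids arginine, lysine and ornithine, the carrier with the most transcript was Slc7a1 in J110 and Slc7a2 in SSM3. Here and below, levels are of transcripts, and neither protein nor transport was measured in these libraries. Slc7a2 (ENSMUSG00000031596, chromosome 8 of mm10 from 40862396 to 40922308, forward strand) encodes CAT-2, an arginine carrier known for inducible isoforms. It had 0, 3 and 4 counts in J110 and 1515, 1530 and 1619 in SSM3. Its level in SSM3 was 328 ± 8.10 CPM (SD, n = 3), the highest of all 49 genes in that line. The ratio of SSM3 to J110 was 704, with an exact binomial 95% interval from 342 to 1753 that covers counting error only (edgeR adjusted p = 5.54e-16). Since it rests on few J110 counts, the ratio was 461 without J110 replicate 1, 818 without replicate 2 and 1119 without replicate 3. In J110 replicate 3, where 12 of 18 genes abundant in SSM3 and absent from both other J110 libraries had counts, at 0.182% of their SSM3 level, the 4 counts of Slc7a2 were 0.254% of its SSM3 mean. In J110 replicate 2, where 1 of 7 such genes had counts, at 0.0172% of their SSM3 level, its 3 counts were 0.181%. The part of such counts in the Slc7a2 value was not tested.

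Slc7a1 encodes CAT-1, the carrier of cationic amino acids in most growing cells. Its level was 68.1, 70.2 and 67.0 CPM in J110 and 56.1, 59.0 and 59.5 CPM in SSM3, somewhat lower in SSM3 with no overlap (log2 fold change -0.23, SE 0.085, edgeR adjusted p = 0.0207). This call was lost with library size only (-0.06, adjusted p = 0.558), with DESeq2 (adjusted p = 0.0715), when all genes with 1 count or more were kept (adjusted p = 0.0862) and without SSM3 replicate 1 (adjusted p = 0.0728). Slc7a3, which encodes CAT-3, had 5, 10 and 4 counts in J110 and 3, 2 and 1 in SSM3 and was not tested. Slc7a1 thus held 97.5% ± 1.07 of the summed CPM of the 3 uniporters in J110, and Slc7a2 held 84.8% ± 0.666 in SSM3 (SD, n = 3 each). Slc7a2 shares 635 exon bases with the opposite-strand gene Gm26584, which had at most 2.72% of its counts in any SSM3 library. In J110 Gm26584 had 0, 2 and 0 counts, beside 0, 3 and 4 of Slc7a2.

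Slc7a6 and Slc7a7 encode the light chains y+LAT2 and y+LAT1, which exchange cationic for neutral amino acids. Slc7a6 led in both lines, with a mean of 52.1 ± 4.25 CPM over the J110 libraries and 39.6 ± 2.40 CPM over those of SSM3 (SD, n = 3). It was lower in SSM3 by a log2 fold change of -0.40 (SE 0.10, edgeR adjusted p = 0.00229), which with library size only was -0.22 (adjusted p = 0.0686). Slc7a7 was counted at 2.31, 4.15 and 2.71 CPM in J110 and 18.9, 18.3 and 22.1 CPM in SSM3, well apart (log2 fold change 2.68, SE 0.23, edgeR adjusted p = 1.51e-08). Its share of the pair was 5.56% ± 1.72 in J110 and 33.3% ± 1.48 in SSM3. Slc7a7 shares 232 exon bases with Oxa1l on the opposite strand, which had 191, 188 and 161 counts in J110 and 411, 419 and 462 in SSM3. Oxa1l was thus above Slc7a7 in every library, and reads of these genes cannot be told apart where they overlap.

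**Figure D2:**
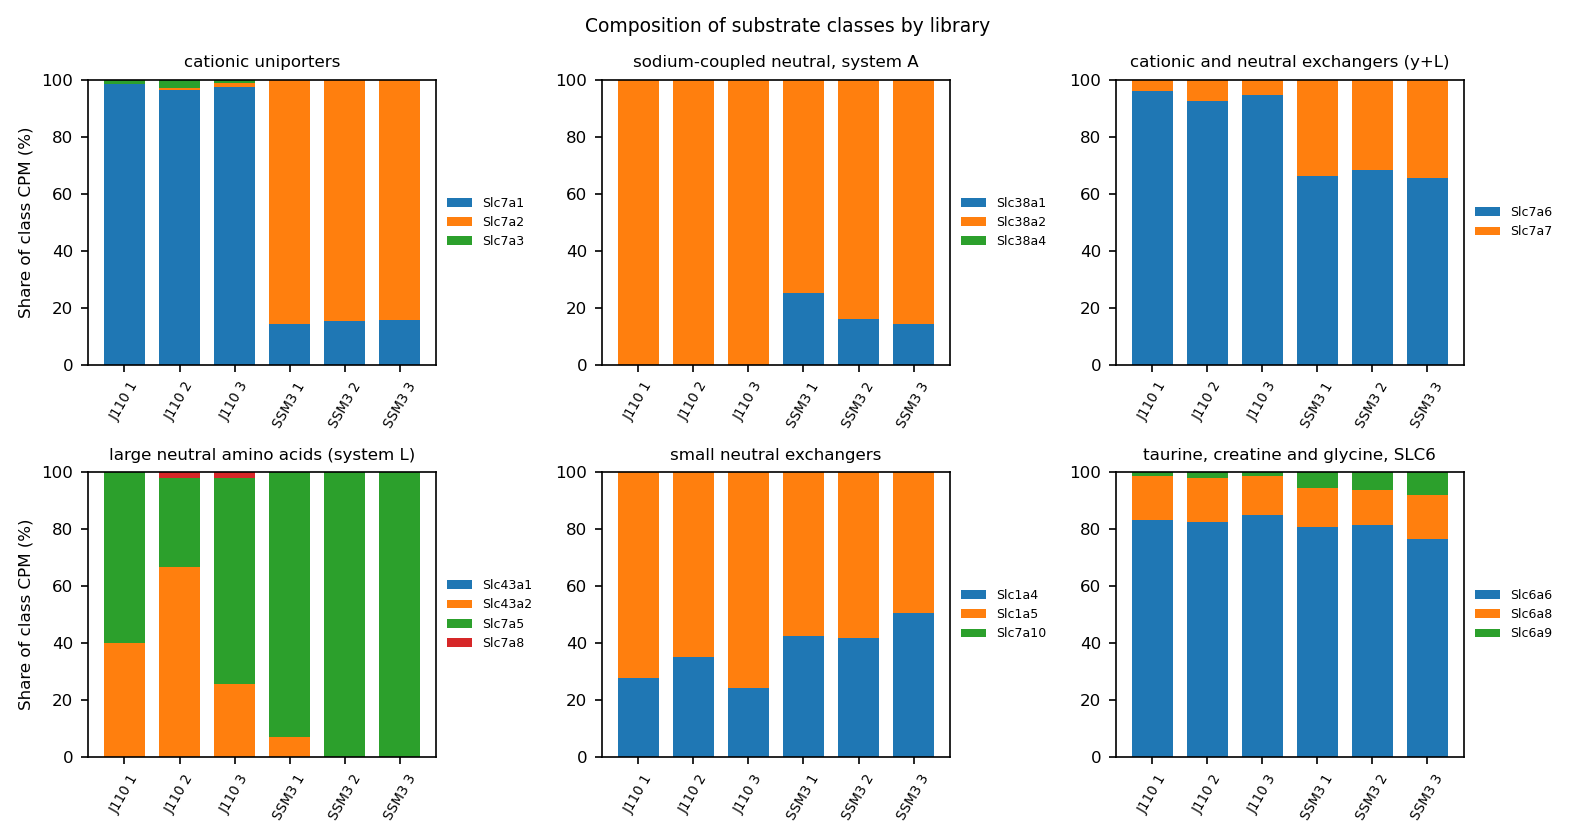
Share of each member in the summed CPM of its substrate class, in percent, for 6 classes, with 1 stacked bar for each of the 3 J110 and 3 SSM3 libraries. Among the cationic uniporters Slc7a1 fills the J110 bars and Slc7a2 most of the SSM3 bars, with a share of 84.8% on average, while Slc38a2, Slc7a6 and Slc6a6 are the largest part of their classes in every library.

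Slc7a11 (ENSMUSG00000027737, chromosome 3 from 49892526 to 50443614, reverse strand) encodes xCT, which brings in cystine in exchange for glutamate and so supplies cysteine for glutathione. It had 160, 184 and 140 counts in J110 and 2, 2 and 0 in SSM3. SSM3 was at the floor, and Slc7a11 was at least 48.1-fold lower there (edgeR adjusted p = 1.65e-11). Slc7a9, the other cystine carrier of the families, had no count in any library, and Slc3a1, its heavy chain rBAT, had 1, 3 and 9 counts in J110 and 1, 0 and 2 in SSM3. Slc3a1 shares 601 exon bases with Prepl on the opposite strand, which had more counts in every library, from 21 to 54. The cystine class therefore had a carrier above the floor in J110 and none in SSM3. In SSM3 replicate 2, 16 of 16 genes abundant in J110 and absent from both other SSM3 libraries had counts, at 0.453% of their J110 level, and Slc7a11 was at 1.32% of its J110 mean there. It was at 1.39% in SSM3 replicate 1, for which no gene met this definition. SSM3 cells alone were grown with β-mercaptoethanol, a reducing agent, and its part cannot be told apart from that of the line.

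ATF4, a transcription factor of the amino acid response, acts through elements with the core TGATGNAA, in which N is any base. This motif was searched on both strands in the 250 bases before the transcription starts of RefSeq (GRCm38.p6), and 3.45% of 32851 such windows held it. Of the 49 transporters, 35 had at least 1 window, among them 15 of the 23 tested. The motif was found before Slc7a11, which fell to the floor in SSM3, and before Slc7a7, which rose. Only 13 of the 32851 windows held it more than once, and that of Slc7a11 was one of them. The windows of these genes are shown, with that of Slc38a2, an abundant carrier whose window lacks the motif. Sequence outside the 250 bases was not searched, so the gene may hold it elsewhere. Letters run 5′ to 3′ on the strand of the gene, with the motif in capitals.
Slc7a11, chr3:50443614-50443863, reverse strand: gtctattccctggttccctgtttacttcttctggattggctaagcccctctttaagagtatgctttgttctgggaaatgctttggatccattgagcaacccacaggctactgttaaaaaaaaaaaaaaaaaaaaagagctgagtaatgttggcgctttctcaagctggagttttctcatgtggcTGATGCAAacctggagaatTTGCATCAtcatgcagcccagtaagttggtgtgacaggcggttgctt
Slc7a7, chr14:54417945-54418194, reverse strand: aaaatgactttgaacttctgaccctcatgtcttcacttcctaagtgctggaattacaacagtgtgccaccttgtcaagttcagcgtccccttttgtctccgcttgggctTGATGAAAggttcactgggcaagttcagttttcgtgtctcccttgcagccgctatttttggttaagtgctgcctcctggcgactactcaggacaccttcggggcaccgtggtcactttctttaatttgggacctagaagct
Slc38a2, chr15:96699729-96699978, reverse strand: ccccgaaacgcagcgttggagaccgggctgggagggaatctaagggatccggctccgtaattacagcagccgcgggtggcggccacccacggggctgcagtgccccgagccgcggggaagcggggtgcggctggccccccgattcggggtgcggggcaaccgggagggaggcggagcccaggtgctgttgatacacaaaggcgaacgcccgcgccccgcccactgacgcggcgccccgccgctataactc
Before Slc7a11 the motifs began 66 and 47 bases upstream of the start, 1 on each strand and facing each other, its only start in the table. Slc7a7 had 5 starts, and 2 of their windows held the motif once. In the window shown, which lies outside any gene of the annotation, it began 141 bases upstream, and in the other 243 bases upstream of the next start. A match of letters is a description and not a binding site.

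Large neutral amino acids such as leucine and phenylalanine enter through system L, for which counts were low in both lines. Slc7a5, which encodes LAT1, had 30, 16 and 37 counts in J110 and 13, 19 and 16 in SSM3, with overlap between the lines. Its log2 fold change was -0.71 (SE 0.33, 95% limits -1.35 and -0.07 before adjustment, edgeR adjusted p = 0.0585), and without J110 replicate 2, the lowest J110 library, it was -1.001 (adjusted p = 0.00822). Other filters on low counts also moved it past the threshold, with an adjusted p of 0.0428 where genes with 1 count or more were kept and 0.0429 where every library needed 10. These were the only 3 of 14 alternatives that did so, and across the 14 its log2 fold change ran from -1.001 to -0.42. Slc43a2, which encodes LAT4, had 20, 34 and 13 counts in J110 and 1, 0 and 0 in SSM3, at least 6.63-fold lower (edgeR adjusted p = 4.19e-06). Slc43a2 shares 922 exon bases with the antisense gene Gm45606, which had 9, 4 and 0 counts in J110. In J110 neither Slc7a5 nor Slc43a2 led, since their libraries overlapped, and in SSM3 Slc7a5 held 97.6% ± 4.12 of the class. Slc43a1 had no count and Slc7a8, which encodes LAT2, at most 1 count in any library.

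Slc3a2 encodes the heavy chain 4F2hc, or CD98, with which the light chains of Slc7a5, Slc7a6, Slc7a7, Slc7a8, Slc7a10 and Slc7a11 form dimers. Its level was 116, 106 and 111 CPM in J110 and 136, 137 and 143 CPM in SSM3, higher in SSM3 with no overlap (log2 fold change 0.32, SE 0.079, edgeR adjusted p = 0.00142). The light chains together came to 95.2, 96.1 and 87.6 CPM in J110 and 59.5, 62.2 and 67.3 CPM in SSM3. The ratio of summed light chains to Slc3a2 was 0.840 ± 0.0607 in J110 and 0.454 ± 0.0165 in SSM3 (SD, n = 3 each), and the libraries of the lines did not overlap. In both lines the light chain with the highest level was Slc7a6, with 56.0% ± 2.71 of the light chain sum in J110 and 62.8% ± 0.578 in SSM3. The transcript of LAT1, the partner for which the heavy chain is best known, was low beside it, as Slc7a5 had 4.98% ± 1.995 of the Slc3a2 level in J110 and 2.43% ± 0.438 in SSM3.

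**Figure D3:**
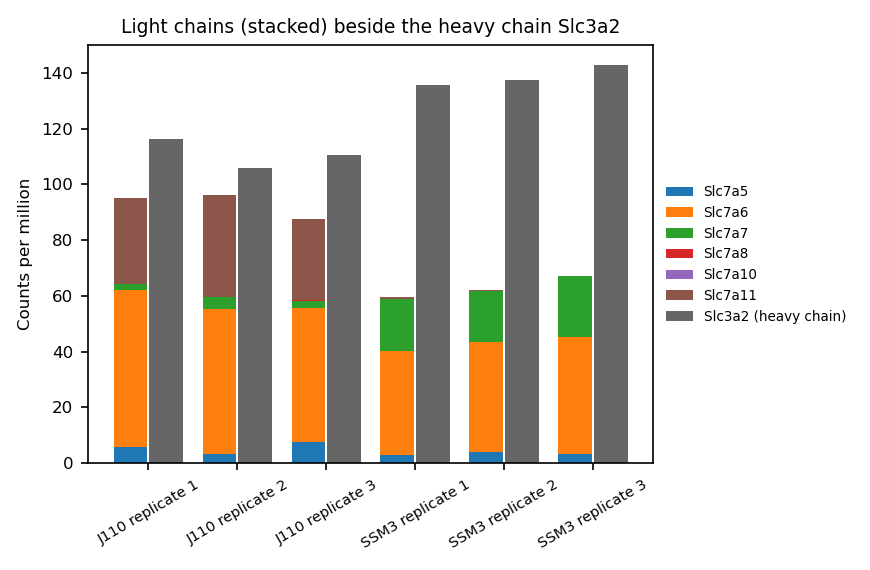
Level in CPM of the 6 light chains known to pair with 4F2hc (stacked bars) and of the heavy chain Slc3a2 (grey bars) in each of the 3 J110 and 3 SSM3 libraries. The stack is lower and the grey bar higher in each SSM3 library, Slc7a11 is seen in J110 and Slc7a7 mainly in SSM3.

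System A carries small neutral amino acids such as alanine and glutamine with sodium, and in both lines Slc38a2 led it. Slc38a2 encodes SNAT2, known to be induced when amino acids are scarce. Its level was 329, 323 and 260 CPM in J110 and 98.9, 117 and 112 CPM in SSM3, lower in SSM3 with no overlap (log2 fold change -1.47, SE 0.097, edgeR adjusted p = 6.30e-10). Slc38a1, which encodes SNAT1, moved the other way. It had 1, 0 and 1 counts in J110 and 150, 105 and 95 in SSM3, at least 39.7-fold higher (edgeR adjusted p = 3.94e-10). These genes are neighbours on chromosome 15, on the reverse strand, with Slc38a1 from 96571418 to 96642913, Slc38a2 from 96687392 to 96699730 and 44.5 kb between them. Slc38a1 held 0.0462% ± 0.0414 of the class in J110 and 18.6% ± 5.86 in SSM3. Slc38a4, the remaining system A gene, and the system N genes Slc38a3 and Slc38a5 had no count in any library.

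Slc1a5 encodes ASCT2, an exchanger of glutamine and other neutral amino acids, and Slc1a4 encodes ASCT1, which favours alanine, serine and cysteine. Slc1a5 was counted at 49.9, 50.6 and 55.1 CPM in J110 and 29.2, 39.3 and 26.7 CPM in SSM3, lower in SSM3 (log2 fold change -0.71, SE 0.13, edgeR adjusted p = 0.000106). Slc1a4 was counted at 19.3, 27.5 and 17.5 CPM in J110 and 21.6, 28.0 and 27.5 CPM in SSM3, with overlap (log2 fold change 0.26, 95% limits -0.07 and 0.60, edgeR adjusted p = 0.173). Its adjusted p was 0.0233 without J110 replicate 2 and 0.0316 with library size only. These were the only 2 of 14 alternatives past the threshold, and across the 14 the log2 fold change of Slc1a4 ran from 0.13 to 0.47. In J110 Slc1a5 led with 70.9% ± 5.62 of this class. In SSM3 the share of Slc1a5 was 55.0% ± 5.01, and its libraries overlapped those of Slc1a4, so neither led. Slc7a10 had no count.

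Among other Slc38 carriers Slc38a10, whose substrates are less well described, led in both lines. Its level was 120, 121 and 114 CPM in J110 and 194, 177 and 234 CPM in SSM3 (log2 fold change 0.77, SE 0.096, edgeR adjusted p = 1.61e-06). Of the lysosomal members, Slc38a7, an exporter of glutamine and asparagine, rose from 7.05 ± 0.692 to 15.3 ± 1.92 CPM (SD, n = 3 each). Slc38a9, the arginine sensor of mTORC1, was 12.5 ± 1.91 CPM in J110 and 16.9 ± 1.23 CPM in SSM3. Its adjusted p was 0.0265, and the call was lost with DESeq2 (adjusted p = 0.0844) and without J110 replicate 2, J110 replicate 3 or SSM3 replicate 2 (adjusted p from 0.0820 to 0.113). Slc38a6 fell from 12.2 ± 0.664 to 6.23 ± 1.59 CPM. All 4 were called, 3 higher and 1 lower in SSM3, and Slc38a8 and Slc38a11 were at the floor in both lines.

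The proton-coupled carriers of glycine, alanine and proline were led by Slc36a1, which encodes PAT1 and sits in lysosomes and at the cell surface. Its level was 25.4, 23.5 and 22.1 CPM in J110 and 37.0, 33.1 and 24.7 CPM in SSM3, with overlap between J110 replicate 1 and SSM3 replicate 3 (log2 fold change 0.41, SE 0.15, edgeR adjusted p = 0.0211). Slc36a4 also overlapped, with means of 6.59 ± 1.19 and 9.53 ± 1.64 CPM (adjusted p = 0.0412). Both calls depended on the libraries used. That of Slc36a1 was lost without J110 replicate 2 or 3 or SSM3 replicate 1 or 2 (adjusted p from 0.0660 to 0.105). That of Slc36a4 was lost with DESeq2 (adjusted p = 0.113), without J110 replicate 1 or 3 and without SSM3 replicate 2 or 3 (adjusted p from 0.0717 to 0.153). Slc36a2 and Slc36a3, which lie next to Slc36a1 on chromosome 11, were at the floor in both lines.

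Of the Slc6 carriers, those of taurine and creatine were lower in SSM3 by a similar ratio. Slc6a6, the taurine carrier, was counted at 265, 277 and 293 CPM in J110 and 114, 93.4 and 88.9 CPM in SSM3 (log2 fold change -1.50, SE 0.092, edgeR adjusted p = 2.48e-10). Slc6a8, the creatine carrier, was counted at 49.0, 51.8 and 47.6 CPM in J110 and 19.4, 14.02 and 18.1 CPM in SSM3 (log2 fold change -1.53, SE 0.13, edgeR adjusted p = 1.81e-08). Neither gene overlapped between the lines. Slc6a9, the glycine carrier GlyT1, had 23, 32 and 19 counts in J110 and 35, 33 and 46 in SSM3, with an adjusted p of 0.0172. Its call was lost with DESeq2 (adjusted p = 0.0598), without J110 replicate 1 or 3 and without SSM3 replicate 3 (adjusted p from 0.0652 to 0.0720). Slc6a9 shares 1429 exon bases with Ccdc24 on the opposite strand, which had between 104% and 111% of its counts in every library, so reads of the pair cannot be told apart. Slc6a14, Slc6a15, Slc6a17 and Slc6a19 were at the floor in both lines.

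The remaining genes include 2 that were called beyond 4-fold. Slc43a3 (chromosome 2 from 84936579 to 84958509, forward strand), which despite its family carries purine nucleobases, had 124, 132 and 141 counts in J110 and none in SSM3, at least 39.6-fold lower (edgeR adjusted p = 1.02e-10). Its neighbour Slc43a1, 73.0 kb away, had no count in either line. Slc7a4, a relative of the cationic carriers for which no transport has been settled, had 7, 6 and 5 counts in J110 and 61, 73 and 61 in SSM3 (log2 fold change 3.49, SE 0.28, edgeR adjusted p = 6.55e-09). It shares 554 exon bases with P2rx6 on the opposite strand, which had at most 3 counts in a library. Transcripts of high-affinity carriers of glutamate and aspartate were close to absent, as Slc1a3, Slc1a6 and Slc7a13 had no count and Slc1a2 was at the floor. Slc1a1, which encodes EAAC1, had no count in J110 and 8, 5 and 7 in SSM3, where the opposite-strand gene 4430402I18Rik, with 2631 shared exon bases, had 3, 6 and 5 counts. Slc1a7 had 1, 4 and 0 counts in J110 and none in SSM3. Of the 26 genes not tested, 13 had no count in any library, 9 had counts but were at the floor in both lines, and 4 passed the floor in 1 line, with at most 10 counts in a library. The 9, with at most 2 counts in any library, were Slc1a2, Slc6a14, Slc6a17, Slc6a19, Slc7a8, Slc7a14, Slc36a2, Slc36a3 and Slc38a11, and among those with none were Slc7a12 and Slc7a15, which have no role given here.

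**Figure D4:**
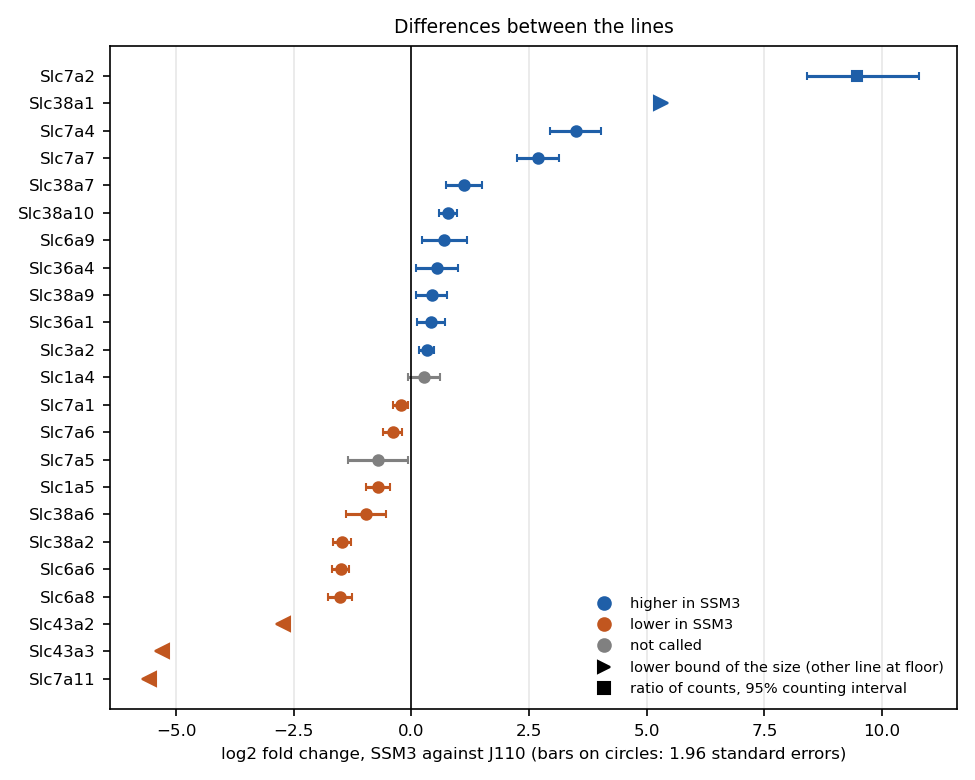
Log2 fold change, SSM3 against J110, of the 23 tested amino acid transporter genes, with bars for 95% limits on circles, a counting interval on the square for Slc7a2, and triangles for the 4 genes at the floor in 1 line, whose size is a lower bound. Slc7a2 and Slc38a1 lie farthest to the right and Slc7a11 and Slc43a3 farthest to the left, while Slc1a4 and Slc7a5 (grey) were not called.

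Across 13 classes, a member led in 9 in J110 and in 9 in SSM3, where leading means that its lowest library lay above the highest library of the next member. In 7 classes a member led in both lines, and it was the same gene in 6, namely Slc38a2, Slc38a10, Slc7a6, Slc36a1, Slc6a6 and Slc3a2. The cationic uniporters were the class in which it differed. Not all of these classes share a substrate. That of Slc6a6 pools carriers of taurine, creatine and glycine, that of Slc38a10 pools lysosomal and less described carriers, and Slc3a2 is a heavy chain. The cystine and small neutral classes had a leader in J110 alone, the acidic and system L classes in SSM3 alone, where Slc1a1 and Slc7a5 led at 1.41 ± 0.360 and 3.37 ± 0.593 CPM. Dividing by the union of exon lengths left the most abundant member the same in 21 of 21 classes and lines, but Slc7a5 then led system L in J110 too, at no less than 1.27 times Slc43a2 in a library.

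Genes that sense or use the same amino acids were described beside the transporters, by lists of known members. Their shares called are to be read against the 77.9% of all genes tested, 38.6% higher and 39.2% lower in SSM3. The lists were drawn up with earlier results of these data known. Of 9 genes of arginine, polyamine and branched-chain metabolism, 8 were tested and 8 called, 4 in each direction. Arg1 and Arg2, the arginases that split the arginine carried by CAT-1 and CAT-2, were both higher in SSM3. Arg1 had 1, 0 and 1 counts in J110 and 72, 70 and 54 in SSM3, at least 22.2-fold higher, and Arg2 rose from 53.7 ± 4.94 to 94.1 ± 0.712 CPM (SD, n = 3 each). Arg2 shares 285 exon bases with Vti1b, which had from 418 to 549 counts and was above it in every library. Odc1, which starts polyamine synthesis, fell from 318 ± 24.1 to 184 ± 18.7 CPM. Bcat1, which transfers the amino group of leucine, isoleucine and valine, had 61, 79 and 61 counts in J110 and 1, 0 and 0 in SSM3, at least 20.02-fold lower, and Bckdhb of the next step fell from 26.5 ± 4.32 to 9.56 ± 1.98 CPM. Their partners moved the other way, as Bcat2, the other aminotransferase, rose from 3.36 ± 1.25 to 10.47 ± 2.83 CPM and Bckdha, the other subunit, from 5.06 ± 0.405 to 8.37 ± 2.08 CPM. Bckdha shares 1171 exon bases with B3gnt8 on the opposite strand, which had at least as many counts in every library.

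Of 8 genes that make, use or degrade cysteine and glutathione or act beside them, 7 were tested, 6 were lower in SSM3, none was higher, and the median log2 fold change was -1.09, the value of Gpx4. Of all genes tested, 39.2% were lower, and this list too was drawn up with earlier results known. The 4 tested genes of synthesis itself were Gclc, Gclm and Cth, which were lower, and Gss, which was not called (log2 fold change -0.32, edgeR adjusted p = 0.0890). Gclm and Gss share exon bases with opposite-strand genes that have counts, Gm17494 and Acss2. Gpx4, which reduces lipid peroxides with glutathione, fell from 375 ± 24.2 to 176 ± 7.15 CPM, Txnrd1, a thioredoxin reductase, from 265 ± 7.04 to 103 ± 2.46 CPM, and Gclc, the catalytic subunit of the first step of glutathione synthesis, from 175 ± 14.9 to 91.6 ± 5.67 CPM (SD, n = 3 each). Cth, which makes cysteine from cystathionine, fell from 6.30 ± 0.587 to 2.03 ± 0.930 CPM, and Chac1, which degrades glutathione, from 7.98 ± 0.234 to 2.58 ± 1.63 CPM.

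Of 9 genes of glutamine and glutamate metabolism, all were tested, 6 were higher and 2 lower in SSM3, with a median log2 fold change of 1.26. Glul, the glutamine synthetase, rose from 57.4 ± 3.39 to 227 ± 3.90 CPM, and the aminotransferases Got2, Got1 and Gpt2 rose from 205 ± 11.0 to 584 ± 31.4, from 97.6 ± 4.63 to 270 ± 10.4 and from 9.01 ± 1.16 to 44.7 ± 4.03 CPM (SD, n = 3 each). Of 8 genes of serine and glycine metabolism, 4 were higher and 3 lower. Phgdh, the first enzyme of serine synthesis, rose from 216 ± 10.4 to 331 ± 19.6 CPM and Shmt1, which makes glycine from serine, from 32.7 ± 4.40 to 125 ± 8.50 CPM, while Psat1, the second enzyme of serine synthesis, fell from 108 ± 9.12 to 37.2 ± 1.92 CPM. Gldc and Amt belong to the same glycine cleavage system and moved in opposite directions. Gldc had 98, 103 and 115 counts in J110 and 1, 1 and 0 in SSM3, at least 31.6-fold lower, and Amt had 11, 7 and 2 counts in J110 and 30, 38 and 39 in SSM3. Shmt1 shares 184 exon bases with Smcr8 on the opposite strand, which had from 63 to 139 counts.

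Of 10 genes of the ATF4 pathway, all were tested, 3 were higher and 6 lower in SSM3. Atf4 itself rose from 285 ± 24.0 to 605 ± 61.2 CPM, Cebpg, its partner, had 38.9 ± 4.87 and 48.3 ± 8.07 CPM with an adjusted p of 0.042 and overlapping libraries, and Ddit3, a target, fell from 92.2 ± 9.39 to 59.8 ± 5.36 CPM (SD, n = 3 each). Cebpg shares 73 exon bases with Gm44836 on the same strand, which had 39, 34 and 28 counts in J110 and 62, 57 and 67 in SSM3. Ddit3 shares 68 exon bases with Mars on the opposite strand, which had more counts in every library, from 536 to 722. Vldlr had 22, 32 and 19 counts in J110 and 0, 1 and 0 in SSM3, at least 7.25-fold lower. Of 20 genes of amino acid sensing at the lysosome, 19 were tested, 10 were higher and 7 lower. Rraga and Rragc, GTPases that recruit mTORC1, moved apart, Rraga from 219 ± 15.6 to 289.5 ± 27.2 CPM and Rragc from 205 ± 17.5 to 93.2 ± 9.18 CPM. Lamtor1, the lysosomal anchor of these GTPases, rose from 90.2 ± 9.68 to 207 ± 16.97 CPM. The sestrins did not move together. Sesn1 rose from 4.29 ± 1.54 to 7.90 ± 0.892 CPM, while Sesn2, a leucine sensor, fell from 27.9 ± 3.40 to 6.63 ± 1.31 CPM and Sesn3 fell from 46, 44 and 41 counts to 1, 1 and 3, at least 13.0-fold lower.

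Of 16 other amino acid carriers, 13 were tested, 5 were higher and 3 lower. Slc25a12, the mitochondrial aspartate and glutamate carrier, rose from 38.8 ± 2.06 to 75.6 ± 5.94 CPM and Slc25a44, a mitochondrial carrier of branched-chain amino acids, from 40.3 ± 2.25 to 66.2 ± 3.46 CPM. Mfsd12, which brings cysteine into lysosomes and melanosomes, rose from 8.54 ± 1.84 to 33.9 ± 1.04 CPM, and Slc17a5, the lysosomal sialin, fell from 10.1 ± 2.39 to 2.003 ± 0.997 CPM (SD, n = 3 each). Of the mouse copies of the proline carrier, Slc6a20a had 1 count in all 6 libraries together and was not tested. Slc6a20b had 302, 336 and 258 counts in J110 and 227, 264 and 268 in SSM3 (edgeR adjusted p = 0.157). The opposite-strand gene Sacm1l, with 1800 shared exon bases, had 304, 340 and 264 counts in J110 and 224, 263 and 267 in SSM3, so the counts of Slc6a20b cannot be told apart from those of Sacm1l.

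**Figure D5:**
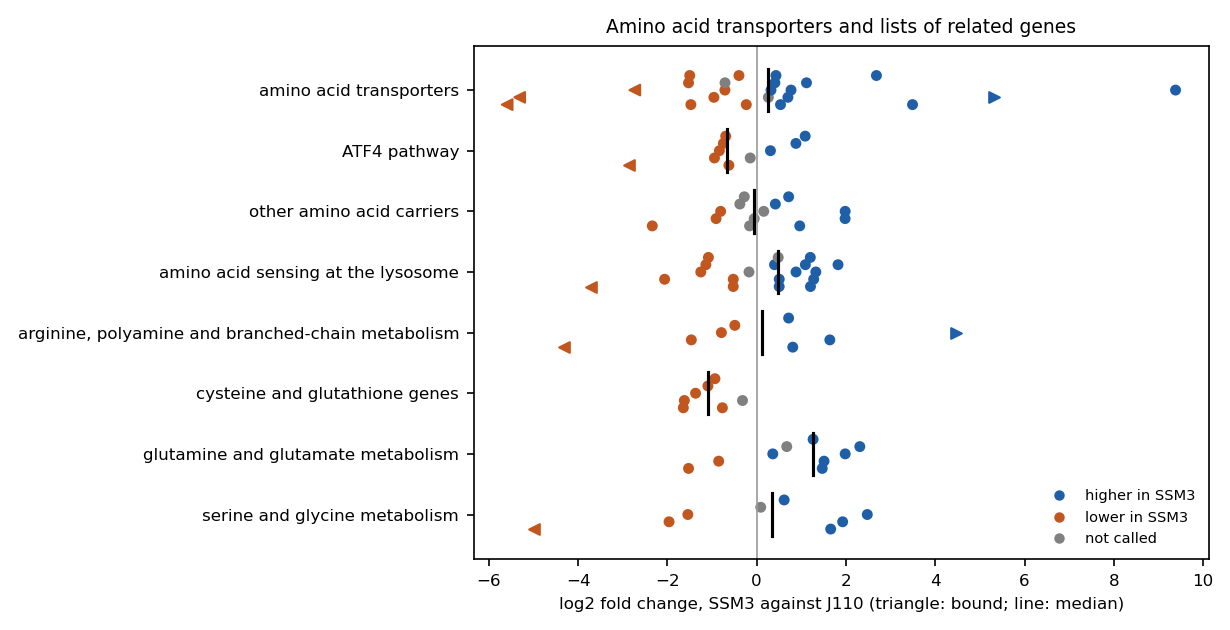
Log2 fold change, SSM3 against J110, of each tested gene of the amino acid transporters and of 7 lists of related genes, 1 point per gene, with triangles for lower bounds and a black line at the median of each list. The 7 tested genes of the cysteine and glutathione list, of which 4 act in synthesis, all lie to the left of 0, 6 of them called, and the glutamine and glutamate genes have a median of 1.26. The lists were drawn up with earlier results of these data known.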

How the data were processed

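The members, the substrate classes and the lists of related genes were chosen with earlier results of these data known. Total RNA of J110 and SSM3 cells (3 replicates each) was made into QuantSeq 3′ libraries. The authors trimmed reads with cutadapt (version 2.1), mapped them to mm10 with HISAT2 (version 2.0.4), counted them with featureCounts of Subread (version 2.0.0) and deposited raw counts per Ensembl gene. The strand setting is not given in the sources used here. Of 52636 identifiers, 52403 matched GENCODE vM21 (GRCm38).

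In edgeR (version 4.0.16, R 4.3.3), low genes were removed by filterByExpr, library sizes were scaled by TMM, and lines were compared by quasi-likelihood F-tests, with Benjamini-Hochberg adjustment over 12284 genes and a threshold of 0.05. The standard error is the log2 fold change divided by the square root of F. Lower bounds divide the mean CPM of the higher line by the highest value of 3 counts per library in the other. P-values weigh the difference between the lines against the spread between replicate cultures of each line. They do not extend to other tumours. All tested members are named. Of each list, as far as tested, the 3 genes with the highest mean CPM and the 2 with the largest log2 fold changes are named. Untested members are given by their counts or as at the floor. A gene that shares exons with a named one is given where its counts could bear on the value. The motif, Sesn1, Gclm, Gss, Bcat2, Bckdha and Slc6a20a were chosen after the values were seen. Alternatives were DESeq2 (version 1.42.0), limma-voom (limma 3.58.1), other scalings and filters, glmTreat, a replicate block, and each library left out in turn. One item of the design is not reported here.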

Additional observations from a re-analysis of the deposited data

How the results depend on the processing

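The 21 called transporters became 10 (4 higher and 6 lower in SSM3) when glmTreat tested only changes beyond 2-fold, where 34.8% of all genes tested passed. Leaving out each library in turn gave from 17 to 21 called, from 7 to 10 of them higher and from 9 to 11 lower. Over all genes these fits called from 9275 to 9572, out of 12454 to 12564 tested. The 7 higher were found without J110 replicate 3, where Slc38a9, Slc36a1, Slc36a4 and Slc6a9 were lost. DESeq2 called 17. With library size only, the median over all genes tested moved on the log2 scale from -0.014 to 0.16, and 20 transporters were called, 12 higher and 8 lower. That scaling called 9513 of all 12284 genes tested. No tested transporter changed direction under any alternative. Leaving glmTreat aside, 15 of the 23 kept their side of the threshold in all alternatives that tested them, the other 8 being Slc1a4, Slc7a5, Slc7a1, Slc7a6, Slc36a1, Slc36a4, Slc38a9 and Slc6a9. The cause was not tested. The counts called in the 7 lists stayed within 1.5 times in the alternatives run on them, which did not include glmTreat. Without members that share exons with another gene, 1 class still had different leaders, but it was the Slc38 class without Slc38a10, since Slc7a2 was left out with them. The labels do not say whether the replicate numbers pair the samples. Deviations of same-numbered libraries correlated at 0.0156, 0.0144 and 0.0357 across genes. With the replicate block 21 transporters were called, 11 higher and 10 lower, and 9481 of all 12284 genes tested. Each of the 6 libraries correlated best with its own number, a hint from the data and not the design. For the 22 transporters at the floor in both lines, no difference could be measured at these depths.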
